A study of Mus musculus with 9 samples.

Results

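The comparison of 24 h of silica with no treatment covers 6 of the 9 small RNA libraries in the series, chosen by their titles and treatment labels. All were made from exosomes, membrane vesicles shed by cells, of the mouse macrophage line RAW264.7. Of the 6 libraries, 3 came from untreated cells and 3 from cells kept with silica for 24 h. Both groups shared the line, the DMEM medium with fetal bovine serum, the collection by ultracentrifugation, the Trizol extraction and the BGISEQ-500 library protocol. The silica dose, the particle size, the culture time of the untreated cells and any removal of vesicles from the serum are not stated in the labels. By the design text the repetitions of a group were independent, and the p-values below measure the spread between them. A single transformed line is the limit of the model, since lung macrophages were not sampled.

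A miRNA is cut from a hairpin whose arms, named 5p and 3p, can each enter an Argonaute protein, and usually one arm is kept while the other is degraded. The kept strand pairs with messenger RNAs mainly through its seed, bases 2 to 8, so miRNAs with the same seed share most predicted targets. Vesicles carry a selection of the miRNAs of their cell together with fragments of longer RNAs. Silica particles taken up by macrophages damage lysosomes, activate the NLRP3 inflammasome and, in the lung, lead to the fibrosis known as silicosis.

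The mature sequences on which the comparison turns, from RefSeq on GRCm38.p6, are given 5′ to 3′ with the seed in capitals. The first set holds miRNAs whose 3 libraries at 24 h all lay above the 3 untreated ones, among the lowest p-values or the most abundant.
miR-139-5p: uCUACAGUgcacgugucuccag
miR-139-3p: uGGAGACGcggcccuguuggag
let-7d-3p: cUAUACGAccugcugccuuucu
miR-191-3p: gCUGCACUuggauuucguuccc
miR-149-5p: uCUGGCUCcgugucuucacuccc
miR-451a: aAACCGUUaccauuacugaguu
miR-382-5p: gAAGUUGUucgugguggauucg
miR-574-3p: cACGCUCAugcacacacccaca
let-7c-5p: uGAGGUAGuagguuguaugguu
let-7b-5p: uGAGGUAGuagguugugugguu
miR-10a-5p: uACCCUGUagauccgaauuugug
miR-423-3p: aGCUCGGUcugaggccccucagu

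The second set holds the miRNAs with the opposite order, all 24 h libraries below all untreated ones. They are shown because the lowest p-values of the comparison, or the largest CPM differences of the lower miRNAs, fall among them.
miR-532-3p: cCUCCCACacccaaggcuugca
miR-219a-5p: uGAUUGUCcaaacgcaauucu
miR-140-3p: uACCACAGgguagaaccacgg
miR-674-3p: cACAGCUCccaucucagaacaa
miR-29a-5p: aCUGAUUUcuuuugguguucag
miR-24-3p: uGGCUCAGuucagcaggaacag
miR-24-2-5p: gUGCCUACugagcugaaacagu
miR-27a-3p: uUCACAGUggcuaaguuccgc

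Mature miRNA made up 2158418 to 5712322 counts in the 6 libraries, or 28.0% to 39.3% of all counted reads. A count of 3 equalled 0.497 to 1.56 CPM, the unit of level used below, which scales mature counts by library size and TMM. Intervals and floors given below cover counting error only. Pairs of libraries correlated at r 0.818 to 0.934 across miRNAs, with the lowest value between untreated library 2 and 24 h library 3, the shallowest. Untreated library 2 listed 829 mature miRNAs and the other untreated libraries 573 and 575. At 24 h the numbers were 595, 713 and 486 (difference of means -61.0, two-sided exact permutation p = 0.7 for 3 against 3, where 0.1 is the smallest possible). Myeloid miRNAs were present throughout, with miR-223-3p at 54.0 to 184 CPM and miR-155-5p at 578 to 910 CPM.

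No miRNA passed the test at 24 h. Of 453 tested, edgeR's quasi-likelihood fit called 0 (0%) at a Benjamini-Hochberg adjusted p of 0.05, and 46 (10.2%) had an unadjusted p under 0.05, 25 higher (5.52%) and 21 lower (4.64%). DESeq2 called 4 and limma-voom 0. All 24 h libraries lay above all untreated ones for 47 miRNAs (10.4%) and below them for 28 (6.18%). In bulk vesicle RNA, fewer vesicles of a kind and less RNA in each cannot be told apart. The median log2 fold change over all 453 was -0.07, and 211 (46.6%) were above 0. Values are therefore given below as levels and differences, and each edgeR p is adjusted over the 453.

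**Figure D1:**
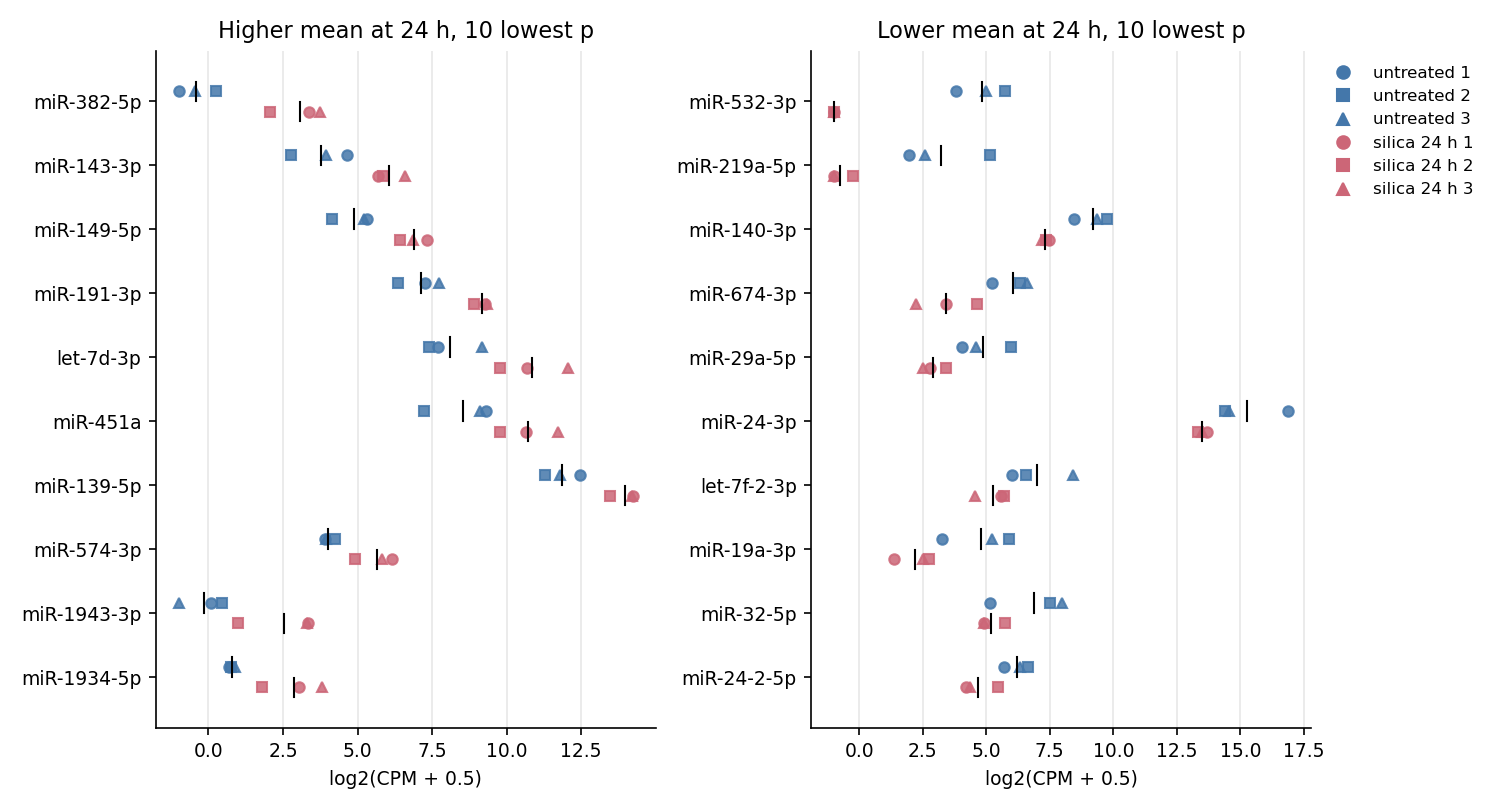
Level of each of the 20 miRNAs with the lowest p, 10 higher and 10 lower at 24 h, as log2(CPM + 0.5) on the x axis. Points are single libraries, with shapes for replicate numbers, and black bars are group means on that scale. The 24 h and untreated libraries do not overlap for 19 of the 20, and miR-32-5p is the exception.

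Among the higher miRNAs, both arms of the miR-139 hairpin stood out by abundance. This hairpin lies in an intron of Pde2a (GRCm38.p6, chr7:101475376-101475443), and miR-139-5p is widely described as reduced in tumours. The levels of miR-139-5p were 5640, 2514 and 3566 CPM in untreated libraries 1 to 3 and 19281, 11275 and 18849 CPM at 24 h. The lowest 24 h library was well above the highest untreated one (log2 fold change 2.08, SE 0.69, edgeR adjusted p = 0.386). The partner arm, miR-139-3p, stood at 2653, 1503 and 1691 CPM in untreated and 3825, 3738 and 4548 CPM at 24 h. These groups did not overlap either, with a smaller difference (log2 1.05, SE 0.45, edgeR adjusted p = 0.459).

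The deposited tables also count reads of the Rfam mir-139 precursor family apart from the mature rows. That row stood at 163, 105 and 101 RPM of all counted reads in untreated and 229, 297 and 173 RPM at 24 h. The precursor row thus showed the same order as both arms, without overlap. Its reads share the libraries with the mature rows, so this is not an independent experiment.

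Other well-counted miRNAs with higher levels came from unrelated hairpins. The passenger strand let-7d-3p (chr13:48536024-48536045, in an exon of the noncoding RNA 6720427I07Rik) stood at 206, 169 and 582 CPM in untreated and 1636, 880 and 4229 CPM at 24 h. The 24 h libraries were all above the untreated ones, but differed widely among themselves. Its log2 fold change was 2.82 (SE 0.89, edgeR adjusted p = 0.386). Without 24 h library 3 the log2 fold change was 1.99, and without untreated library 3 it was 3.48. With the replicate number as a block, edgeR called it (adjusted p = 0.0269), as it did without the filter, and the adjusted p reached 0.900 without 24 h library 3.

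The 3p arm of miR-191 (chr9:108568367-108568388), the minor arm of an abundant hairpin, had levels of 154, 82.3 and 211 CPM in untreated and 614, 479 and 645 CPM at 24 h. All 24 h values were above the highest untreated one (log2 1.96, SE 0.61, edgeR adjusted p = 0.386). For miR-149-5p (chr1:92850381-92850403, in an intron of Gpc1) the levels were 38.9, 17.1 and 36.6 CPM in untreated and 162, 85.7 and 116 CPM at 24 h. Here too the groups were apart, with untreated library 2 lowest (log2 1.97, SE 0.60, edgeR adjusted p = 0.386). Levels of miR-574-3p (chr5:64970364-64970385, in an intron of Fam114a1) were 14.5, 18.3 and 14.8 CPM in untreated and 71.1, 29.8 and 56.5 CPM at 24 h. The untreated libraries lay close together and all below the 24 h ones (log2 1.72, SE 0.58, edgeR adjusted p = 0.386).

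The red cell miRNA miR-451a, which Argonaute 2 cuts without Dicer, stood at 630, 148 and 556 CPM in untreated and 1605, 872 and 3380 CPM at 24 h. The groups did not overlap (log2 2.14, SE 0.69, edgeR adjusted p = 0.386), and without 24 h library 3 the log2 fold change was 1.48. The liver miRNA miR-122-5p stood at 926, 255 and 1296 CPM in untreated and 1951, 1253 and 2257 CPM at 24 h, where the groups overlapped slightly (log2 1.14, edgeR adjusted p = 0.543). Both are known in blood serum, and serum was in the medium of both groups. Other red cell miRNAs were low, and their groups were not apart. miR-486a-5p stood at 2.73 to 10.1 CPM in untreated and 5.14 to 7.26 CPM at 24 h (log2 -0.13). miR-486b-5p had a higher mean at 24 h (log2 0.94) but overlapped, at 7.45, 1.37 and 2.95 CPM in untreated and 17.8, 4.14 and 0.518 CPM at 24 h. miR-144-3p had 0 to 5 counts in any of the 6 libraries. Over the list of serum, liver and erythroid miRNAs, 5 of 7 tested members had a log2 fold change above 0, with a median of 0.36 against -0.07 for all miRNAs. The list had 1 member higher without overlap, where 10.4% of all 453 miRNAs were. Its summed level was 5414 to 6051 CPM in untreated and 5845 to 10158 CPM at 24 h, and the part of serum RNA in the result was not tested.

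miR-143-3p, a smooth muscle and fibroblast miRNA, stood at 24.6, 6.32 and 14.8 CPM in untreated and 51.4, 57.8 and 96.9 CPM at 24 h. These groups were apart (log2 2.17, SE 0.63, edgeR adjusted p = 0.386). In the mesenchymal and endothelial list, 7 of 9 tested members had a log2 fold change above 0, with a median of 1.09. Without 24 h library 3 the median was 0.33. miR-143-3p was the 1 member without overlap, where 10.4% of all 453 miRNAs were higher without overlap. The most abundant members overlapped between groups: miR-126a-3p had a log2 difference of 0.21 and miR-199b-3p of 0.40 (edgeR adjusted p = 0.902 and 0.919). miR-199a-3p overlapped too, with a log2 difference of -1.10. Its counts were 52, 159 and 6720 in untreated and 2318, 431 and 116 at 24 h. Those of miR-199b-3p were 2899, 3119 and 74 in untreated and 61, 4183 and 1410 at 24 h. In each library most of these reads fell under a single name, so the split between miR-199a-3p and miR-199b-3p is uncertain. The summed level of the list overlapped, at 992 to 2286 CPM in untreated and 1373 to 1652 CPM at 24 h.

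Further low p-values among the higher miRNAs belonged to miRNAs near the floor of 3 counts. miR-1934-5p stood at 1.12, 1.20 and 1.36 CPM in untreated and 7.75, 2.98 and 13.5 CPM at 24 h, and miR-1943-3p at 0.559, 0.854 and 0 CPM and 9.56, 1.49 and 9.33 CPM. Neither overlapped (edgeR adjusted p = 0.437 for each), and their untreated levels were within or near the range that 3 counts give. The log2 fold change of miR-1934-5p was 2.68, and 2.10 without 24 h library 3. That of miR-1943-3p was 3.73, with 4.45 and 3.12 without untreated libraries 2 and 3.

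miRNAs of the imprinted Dlk1-Dio3 region on chromosome 12, expressed from the maternal chromosome and best known from embryo and brain, were low in all libraries. Of 37 listed members, 25 were seen in at least 1 of the 6 libraries and 12 passed the filter on low counts. Among those 12, 11 had a log2 fold change above 0, with a median of 1.11 (1.85 with limma-voom) against -0.07 over all miRNAs. In 6 of the 12 the groups did not overlap, all higher, where 10.4% of all 453 miRNAs were higher without overlap. The summed level of the list was 116, 57.2 and 145 CPM in untreated and 251, 195 and 266 CPM at 24 h. These sums did not overlap. A list filtered on counts keeps members that are high in either group, so these counts are a description of the 12 only.

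Within the region, miR-382-5p (chr12:109733781-109733802, in an intron of Mirg) had 0, 0.683 and 0.227 CPM in untreated and 9.82, 3.65 and 13.0 CPM at 24 h. The untreated libraries were at or near the floor, and all 24 h libraries were above them (log2 4.71, SE 1.32, edgeR adjusted p = 0.386). DESeq2 called it (adjusted p = 0.00751), the 1 of 17 alternatives that did, and the adjusted p reached 0.900 without 24 h library 3. Its log2 fold change was 6.07 without untreated library 2 and 4.06 without untreated library 1. The better counted miR-411-5p (chr12:109710190-109710210) stood at 35.4, 3.93 and 28.2 CPM in untreated and 69.0, 64.1 and 81.9 CPM at 24 h. Its 24 h libraries agreed closely, and the low value of untreated library 2 widened the difference (log2 1.67, SE 0.76, edgeR adjusted p = 0.482). miR-127-3p, which lies antisense to Rtl1, stood at 33.3, 1.20 and 23.8 CPM in untreated and 46.5, 35.3 and 42.0 CPM at 24 h. Its groups were only just apart (log2 1.08, edgeR adjusted p = 0.696), and the log2 difference was 1.77 with the replicate block, 1.72 without untreated library 1 and 2.10 with limma-voom. The member with a negative log2 fold change was miR-369-3p, at 2.79 to 38.8 CPM in untreated and 9.30 to 19.7 CPM at 24 h.

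Among the lower miRNAs, miR-532-3p had the lowest p of the comparison. It lies on the X chromosome in an intron of Clcn5 (chrX:7248419-7248440, minus strand). Its counts were 72, 305 and 137 in untreated, or 13.4, 52.1 and 31.1 CPM, and 0 in each of the 3 libraries at 24 h. Against 3 counts over the 24 h group this is at least 129.7-fold lower (edgeR adjusted p = 0.102). The call changed with the fit. It was made in 7 of 17 alternatives, among them the replicate number as a block (edgeR adjusted p = 0.00694), the 6 libraries alone (0.0347), no filter on low counts (1.46e-07) and DESeq2 (1.86e-06). Leaving out the 48 h library 1 or 2, which enter only the estimate of spread, also made it (edgeR adjusted p = 0.0207 and 0.0339). Over all alternatives the adjusted p reached 0.522, without 24 h library 1.

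The 5p arm of the same hairpin was abundant in the libraries that lacked the 3p arm. miR-532-5p had 926, 17089 and 20995 counts in untreated and 1558, 35200 and 13129 at 24 h. These groups overlapped, and library 1 of each group was the lowest (log2 0.73, SE 1.25, edgeR adjusted p = 0.874). Without untreated library 1 the log2 difference was 0.10, and without untreated library 3 it was 1.38. The Rfam mir-500 precursor row, the family named for a neighbour in the same intron, had 0 to 3 counts in the 6 libraries.

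Other hairpins of that intron lay in both directions. miR-501-3p stood at 246, 438 and 201 CPM in untreated and 191, 180 and 133 CPM at 24 h, with all 24 h libraries below (log2 -0.81, edgeR adjusted p = 0.654). Of 6 tested members of the cluster, 2 had a log2 fold change above 0 and 4 below. Lower without overlap were miR-501-3p and miR-532-3p, beside 6.18% of all 453 miRNAs. The cluster median was -1.09, and -0.10 without untreated library 2. Its summed level of 467 to 5061 CPM in untreated and 635 to 6975 CPM at 24 h followed miR-532-5p.

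miR-219a-5p, a miRNA of oligodendrocytes, had 247 counts in untreated and 2 at 24 h. Its levels were 3.35, 35.01 and 5.45 CPM in untreated and 0, 0.331 and 0 CPM at 24 h. Every 24 h library was under the floor of 3 counts, and untreated library 2 held most of the signal. The ratio of the counts, scaled for depth, was 93.5 (95% counting interval 25.6 to 776), with an edgeR adjusted p of 0.318. The fitted log2 fold change, which is no bound this close to 0, was -6.39, with -4.64 without untreated library 2, -9.21 without 24 h library 2 and -5.24 with limma-voom. The block fit (adjusted p = 0.0302), DESeq2 (0.00449) and the fit without the filter called it, and over 17 alternatives the adjusted p reached 0.900. The Rfam mir-219 precursor row did not share this order. It had 18, 25 and 2 counts in untreated and 4, 20 and 3 at 24 h, and the groups overlapped.

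The better counted miR-140-3p, a cartilage miRNA in an exon of Wwp2 (chr8:107551288-107551308), stood at 350, 866 and 654 CPM in untreated and 176, 162 and 145 CPM at 24 h. The 24 h libraries lay within a narrow range below all untreated ones (log2 -1.95, SE 0.54, edgeR adjusted p = 0.386), and DESeq2 called it (adjusted p = 0.00449). miR-674-3p stood at 36.9, 79.9 and 97.2 CPM in untreated and 10.1, 24.0 and 4.15 CPM at 24 h, without overlap (log2 -2.46, SE 0.74, edgeR adjusted p = 0.386, and log2 -3.32 without 24 h library 2). The minor arm miR-29a-5p stood at 16.2, 62.2 and 23.8 CPM and 6.46, 10.1 and 5.18 CPM (log2 -2.22, SE 0.74, edgeR adjusted p = 0.386). It was lower in every 24 h library, and without untreated library 2 the log2 fold change was -1.41.

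miR-24-3p, cut from hairpins on chromosomes 8 and 13, was among the most abundant miRNAs and had the largest CPM difference among the lower ones. Its levels were 121190, 21399 and 24142 CPM in untreated and 13050, 10271 and 11516 CPM at 24 h. The groups did not overlap, but untreated library 1 was far above its 2 partners. The log2 fold change was -2.26 (SE 0.75, edgeR adjusted p = 0.386), and without untreated library 1 it was -1.03. Without the filter on low counts edgeR called it (adjusted p = 0.00128), and the adjusted p reached 0.900 without 24 h library 3. The passenger strand miR-24-2-5p, from the chromosome 8 hairpin (chr8:84208815-84208921), stood at 51.2, 100.4 and 79.9 CPM in untreated and 18.1, 42.9 and 20.2 CPM at 24 h. It was lower in all 24 h libraries without the excess in untreated library 1 (log2 -1.51, SE 0.57, edgeR adjusted p = 0.437).

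Neighbours in the miR-23/27/24 clusters, which lie on chromosomes 8 and 13, took both directions. miR-27a-3p stood at 46671, 62174 and 71639 CPM in untreated and 42804, 30630 and 46140 CPM at 24 h, lower without overlap (log2 -0.59, SE 0.32, edgeR adjusted p = 0.543). miR-23a-3p stood at 56124, 84915 and 48070 CPM and 92229, 80683 and 84706 CPM, which overlapped (log2 0.45, edgeR adjusted p = 0.626). The list of these clusters also holds miR-3074-5p (log2 -2.12) and miR-3074-1-3p (log2 -0.66), both with overlap. Over this list 3 of 13 tested members had a log2 fold change above 0 and the median was -0.59. Without overlap, 1 member was higher and 3 lower, beside 10.4% and 6.18% of all 453 miRNAs. The summed level of the clusters, led by their abundant members, did not overlap, at 205710 to 273980 CPM in untreated and 149490 to 187300 CPM at 24 h.

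Further low p-values among lower miRNAs were those of let-7f-2-3p, miR-19a-3p and miR-32-5p. let-7f-2-3p stood at 64.6, 94.4 and 343 CPM in untreated and 47.8, 51.7 and 22.8 CPM at 24 h, and miR-19a-3p at 9.13, 58.9 and 36.6 CPM and 2.07, 6.13 and 5.18 CPM. Both were without overlap (log2 -2.03 and -2.96, edgeR adjusted p = 0.409 and 0.437), with -1.03 for the first without untreated library 3 and -2.32 for the second without untreated library 2. miR-32-5p overlapped, since untreated library 1 had 34.6 CPM and 24 h library 2 had 52.7 CPM (edgeR adjusted p = 0.437).

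**Figure D2:**
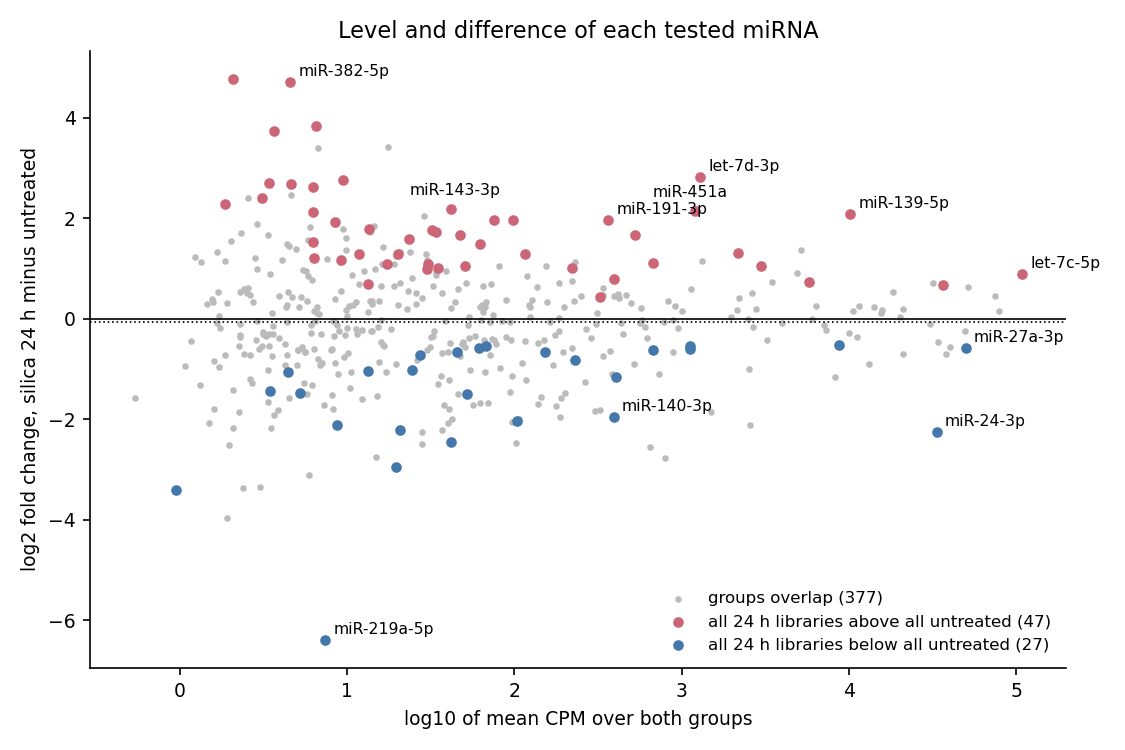
Mean CPM over both groups on a log10 axis against the log2 fold change of silica 24 h minus untreated, 1 point for each tested miRNA. The 2 miRNAs with 0 counts in all 24 h libraries, miR-532-3p and miR-3069-3p, are left out because their fitted fold is no bound. Red points (47) and blue points (27) are miRNAs whose groups do not overlap, the solid line is 0 and the dotted line is the median, -0.07.

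Of the 10 most abundant, let-7c-5p, let-7b-5p and miR-27a-3p had groups that did not overlap. let-7c-5p stood at 98607, 46520 and 83564 CPM in untreated and 148030, 118340 and 154410 CPM at 24 h (log2 0.88, SE 0.40, edgeR adjusted p = 0.482), and let-7b-5p at 35285, 15969 and 33943 CPM and 49356, 35954 and 50452 CPM (log2 0.67, edgeR adjusted p = 0.626). Both were lowest in untreated library 2. The let-7 guides keep stem cell and growth factor messages low in differentiated cells, and the sequences above show how little let-7b and let-7c differ. The labels do not state how reads with more than 1 matching miRNA were counted, so the split between such members is uncertain.

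The other abundant miRNAs overlapped between groups. miR-222-3p stood at 44960, 26864 and 49454 CPM in untreated and 67315, 45737 and 74994 CPM at 24 h (log2 0.63, edgeR adjusted p = 0.543). miR-146a-5p, which NF-kappaB induces and which damps Toll-like receptor signalling, stood at 71185, 19539 and 70627 CPM and 50416, 39239 and 46827 CPM (log2 -0.24, edgeR adjusted p = 0.887). miR-21a-5p stood at 32916, 54756 and 31173 CPM and 31304, 30645 and 24383 CPM (log2 -0.46, edgeR adjusted p = 0.704). In each of the 3, untreated library 2 was the outermost untreated value. miR-99a-5p, miR-27b-3p and miR-7a-5p overlapped as well (log2 0.15, -0.56 and -0.69, edgeR adjusted p = 0.902, 0.654 and 0.716), and the first reversed without 24 h library 3, to -0.22.

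Between 1000 CPM and these levels, 5 further miRNAs had separate groups besides those described. miR-10a-5p, from the Hox B locus, stood at 817, 1631 and 1291 CPM in untreated and 1956, 2149 and 5121 CPM at 24 h. Its difference rested partly on 24 h library 3, with a log2 fold change of 1.30 (SE 0.54, edgeR adjusted p = 0.437) and of 0.70 without it. miR-423-3p stood at 4965, 5011 and 3130 CPM in untreated and 6625, 5926 and 9177 CPM at 24 h, higher in every library (log2 0.73, edgeR adjusted p = 0.543). miR-25-3p stood at 10165, 8382 and 12332 CPM and 6595, 7622 and 7251 CPM, lower in every 24 h library (log2 -0.52, edgeR adjusted p = 0.631). miR-96-5p, at a mean of 1363 ± 386 CPM in untreated and 893 ± 178 CPM at 24 h (SD, n = 3), and miR-1839-5p, at 1323 ± 129 and 909 ± 165 CPM, were lower by less than 1 on the log2 scale (edgeR adjusted p = 0.654 and 0.688).

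**Figure D3:**
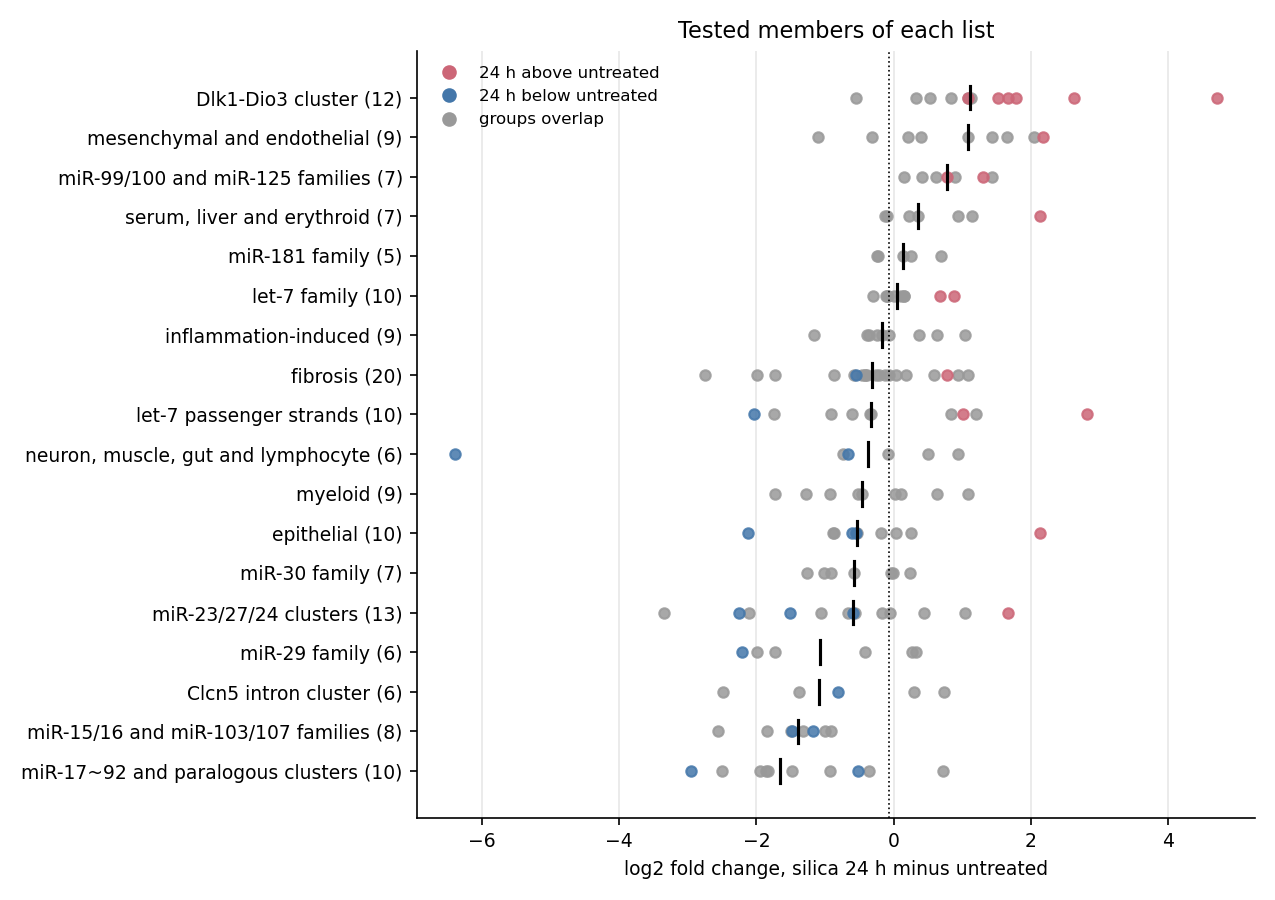
log2 fold change of silica 24 h minus untreated for the tested members of each of 18 lists, with the number tested in brackets. Each point is 1 miRNA, coloured where the groups do not overlap, black bars are list medians and the dotted line is the median of all 453 miRNAs. miR-532-3p is not drawn, though it counts in its list's median.

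The families and clusters differed in which way their members lay, and no member of any list passed the test. Of all 453 miRNAs, 10.4% were higher and 6.18% lower without overlap, the background for each list count here and below. In the miR-10, miR-99/100 and miR-125 list 7 of 7 tested members had a log2 fold change above 0, with a median of 0.78, and 2 were higher without overlap. miR-99b-5p, with 3678, 2850 and 3753 CPM in untreated and 5484, 3338 and 10353 CPM at 24 h, overlapped only through 24 h library 2 (log2 0.90, edgeR adjusted p = 0.543). The miR-15/16 list, with miR-103 and miR-107, had 0 of 8 above 0, a median of -1.40 and 2 members lower without overlap. That median was -0.14 without untreated library 2 and -0.79 with the replicate block. Its summed level was 10683, 44708 and 13129 CPM in untreated and 10242, 12453 and 11723 CPM at 24 h, so 1 untreated library stood apart. miR-16-5p, the main member, had a log2 fold change of -0.91 that became -0.02 without that library, and miR-15b-5p went from -0.99 to 0.14.

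The oncogenic miR-17-92 cluster and its relatives had 1 of 10 tested members above 0 and a median of -1.65, with 2 lower without overlap. That median was -0.08 without untreated library 2, -0.72 with the replicate block and -0.89 with limma-voom. The exception was the most abundant member, miR-92a-3p, at 21966, 24249 and 25657 CPM in untreated and 44369, 20684 and 53144 CPM at 24 h (log2 0.72, edgeR adjusted p = 0.543). miR-93-5p overlapped (log2 -0.37, edgeR adjusted p = 0.728). The summed level of the list, led by miR-92a-3p, overlapped at 44538 to 58150 CPM and 38172 to 71836 CPM.

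The miR-29 list, which holds both arms, had 2 of 6 above 0 and a median of -1.07, which was -0.38 without untreated library 2. The 2 above 0 were the 5p arms miR-29b-1-5p and miR-29c-5p (log2 0.33 and 0.27), which lack the collagen-targeting seed of the 3p arms. All 3p arms in the list were below 0, with overlap, and miR-29b-3p had a log2 fold change of -1.73. miR-29a-3p stood at 1588, 5929 and 3661 CPM in untreated and 2332, 3276 and 2771 CPM at 24 h, and miR-29c-3p at 44.7, 353 and 116 CPM and 41.6, 51.9 and 35.3 CPM. Both overlapped, and both were highest in untreated library 2 (log2 -0.42 and -1.99, edgeR adjusted p = 0.823 and 0.482). Without that library the values became 0.12 and -0.87. The miR-30 list had 1 of 7 above 0, a median of -0.58 and no member without overlap, and miR-30d-5p had a difference near 0 (log2 -0.01, edgeR adjusted p = 0.987). The miR-181 list, with 3 of 5 above 0 and a median of 0.14 (-0.11 without untreated library 1), overlapped throughout, with miR-181a-5p at a log2 difference of 0.25 and miR-181b-5p of -0.22.

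miRNAs that inflammatory signals induce had 3 of 9 above 0 with a median of -0.17, and none was without overlap. miR-155-5p, the NF-kappaB and AP-1 target that promotes macrophage activation, stood at 773, 724 and 904 CPM in untreated and 910, 578 and 793 CPM at 24 h, a log2 difference of -0.07. The myeloid list had 4 of 9 above 0, no member without overlap and a median of -0.46 that became 0.13 without untreated library 2. Its miR-142a-3p stood at 29.8, 188 and 43.4 CPM in untreated and 16.5, 47.2 and 14.5 CPM at 24 h, so both groups were highest in library 2. The let-7 guides had 5 of 10 above 0 and a median of 0.05, while their passenger strands had 4 of 10 and -0.34, with let-7d-3p and let-7e-3p higher and let-7f-2-3p lower without overlap.

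Lists of other tissues gave no common direction. In the epithelial list 3 of 10 were above 0 (median -0.54), with 1 higher and 3 lower without overlap, and its summed level was 5379 to 10491 CPM in untreated and 7208 to 10479 CPM at 24 h. In the neuron, muscle, gut and lymphocyte list 2 of 6 were above 0 (median -0.37), with miR-138-5p and miR-219a-5p lower without overlap. Its summed level was 460 to 789 CPM and 404 to 664 CPM, and the muscle marker miR-206-3p had 0 counts in 5 of the 6 libraries and 2 in the other. Another muscle marker, miR-1a-3p, was not tested, with 0, 1 and 0 counts in untreated and 11, 1 and 8 at 24 h. The fibrosis list, which may hold miRNAs that work on these samples put forward, had 6 of 20 above 0 and a median of -0.32. Its miR-7219-3p, named here after its values were known, stood at 22.0, 59.9 and 29.1 CPM in untreated and 38.0, 100.4 and 28.0 CPM at 24 h (log2 0.59, SE 0.64, edgeR adjusted p = 0.749). The part of other cell types in these results was not tested.

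The arm comparison asked whether exosomes of treated cells held a different balance of the 5p and 3p strands of a hairpin, a ratio that needs no scaling between libraries. Of 347 hairpin names with both arms listed, 141 had enough counts to test on log2 of 5p over 3p, with 0.5 added to each count. limma with Benjamini-Hochberg adjustment called 0 (0%), and 15 (10.6%) had an unadjusted p under 0.05. The balance was without overlap towards 5p at 24 h in 13 hairpins (9.22%) and towards 3p in 12 (8.51%). The median absolute difference was 1.14, against a median SD between libraries of 1.25 in untreated and 1.03 at 24 h.

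**Figure D4:**
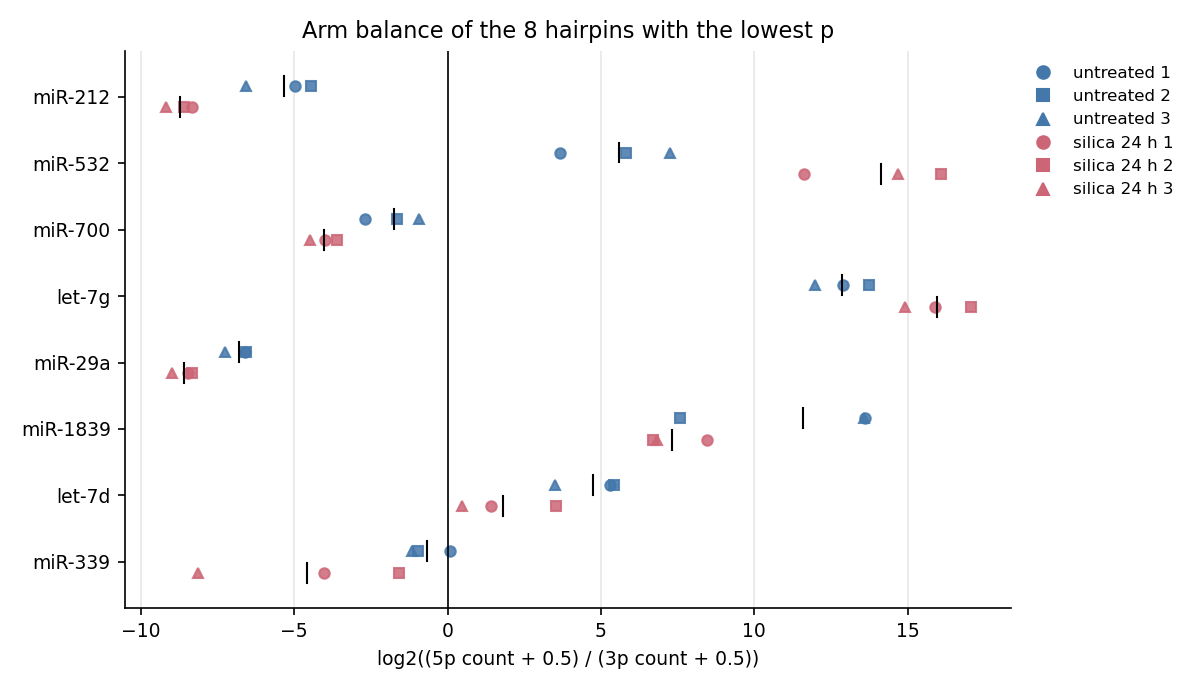
Arm balance of the 8 hairpins with the lowest limma p, as log2 of the 5p count over the 3p count with 0.5 added to each, 1 point a library. Values right of the vertical line at 0 mean more 5p than 3p reads. Black bars are group means. For miR-212, miR-532, let-7g, miR-1839 and miR-339 the outermost points come from an arm with 0 counts, so their place depends on the 0.5.

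The lowest p belonged to miR-212, a CREB-induced hairpin (chr11:75173388-75173478) whose main arm is 3p. The arms read as follows, with seeds in capitals.
miR-212-5p: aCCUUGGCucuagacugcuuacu
miR-212-3p: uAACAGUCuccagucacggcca
The 5p arm had 34, 7 and 3 counts beside 1076, 165 and 330 of 3p in untreated, and 4, 1 and 0 beside 1466, 578 and 292 at 24 h. The log2 balance was -5.33 ± 1.10 in untreated and -8.71 ± 0.43 at 24 h (SD, n = 3), without overlap. The difference was -3.38 (SE 0.80, limma adjusted p = 0.144). With 5 added to each count the difference was -1.95, and without untreated library 3 it was -4.00.

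miR-700 had enough counts on both arms for a balance that does not rest on zeros.
miR-700-5p: uAAGGCUCcuuccugugcuugc
miR-700-3p: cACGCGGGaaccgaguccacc
The 3p share was 86.8%, 75.7% and 65.6% of the hairpin's counts in untreated and 94.1%, 92.4% and 95.8% at 24 h. All 24 h libraries were above the untreated ones (log2 difference of 5p over 3p -2.27, SE 0.71, limma adjusted p = 0.309). For miR-29a the minor 5p arm took 87, 364 and 105 counts beside 8525, 34723 and 16122 of 3p in untreated, and 25, 61 and 10 beside 9025, 19768 and 5345 at 24 h. The balance was lower in every 24 h library (-1.78, SE 0.59, limma adjusted p = 0.309).

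let-7d lay the same way, with a 3p share of 2.46%, 2.27% and 8.07% in untreated and 27.04%, 8.02% and 42.1% at 24 h. The groups overlapped narrowly, since untreated library 3 and 24 h library 2 nearly coincided (log2 difference -2.94, SE 1.08, limma adjusted p = 0.411). The difference was -2.27 without 24 h library 3, -3.80 without 24 h library 2 and -3.56 without untreated library 3. The guide let-7d-5p held 115596 counts in untreated and 89214 at 24 h over the 3 libraries, while let-7d-3p held 4658 and 19798. In miR-339 the 3p share was 48.5%, 66.0% and 69.0% in untreated and 94.4%, 75.0% and 100% at 24 h, without overlap. Its difference of -3.91 (SE 1.53, limma adjusted p = 0.452) was -2.13 without 24 h library 3, which had 0 reads of 5p, -5.42 without 24 h library 2 and -2.74 with 5 added to each count.

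Other low p-values came from arms near 0. miR-532 lay further towards 5p in every 24 h library (limma adjusted p = 0.144), because its 3p arm had 0 counts at 24 h. limma called it over the 6 libraries alone (adjusted p = 0.0234) and without the 48 h library 2 (0.0120), and its size depends on the value added to the zeros. let-7g-3p had 7, 5 and 10 counts in untreated and 0 in each 24 h library, beside 15444 to 75460 of let-7g-5p (limma adjusted p = 0.309). For miR-1839, 3p counts were 0, 42 and 0 in untreated and 8, 63 and 14 at 24 h (limma adjusted p = 0.309), and without untreated library 2 limma called it (adjusted p = 0.00238).

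The dominant arm, judged by the mean log2 balance of a group, was the same in both groups for all but 5 of the 141 hairpins. In miR-130b it was 3p in untreated and 5p at 24 h, without overlap of the balance. Its 3p share was 62.3%, 77.2% and 84.3% in untreated and 55.2%, 49.7% and 9.67% at 24 h (log2 difference 2.61, SE 1.06, limma adjusted p = 0.452). The log2 balance was -0.30 and 0.02 in 24 h libraries 1 and 2 and 3.20 in 24 h library 3, so the 5p mean rested on that library. The other 4, miR-664, miR-195a, miR-369 and miR-17, overlapped. Taking all arm-named mature counts together, 59.6%, 52.9% and 59.1% lay on 5p arms in untreated and 59.7%, 65.3% and 61.9% at 24 h. Those groups were only just apart, by 5.12 percentage points (two-sided exact permutation p = 0.1).

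Summing miRNAs by seed gave 339 families with enough counts, leaving out 164 miRNAs for which no sequence was used, which took 3.08% to 6.45% of mature counts. edgeR called 0 (0%), and 30 families (8.85%) had an unadjusted p below 0.05. Without overlap, 39 were higher (11.5%) and 17 lower (5.01%). The lowest p was that of seed CUCCCAC, whose 1 member is miR-532-3p (edgeR adjusted p = 0.0503). The next were GAUUGUC of miR-219a-5p, ACCACAG of miR-140-3p, AAGUUGU of miR-382-5p, ACAGCUC of miR-674-3p, CUGCACU of miR-191-3p, CUGGCUC of miR-149-5p and UAUACGA of let-7d-3p (edgeR adjusted p = 0.197 to 0.275). Each of these seeds had 1 abundant member, so the sums repeat the single miRNAs. With the replicate number as a block edgeR called 9 families, 4 higher and 5 lower.

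Of 41 families with at least 2 tested members, 5 had separate groups, where 11.5% of all 339 families were higher and 5.01% lower without overlap. The 5 are given as a description of levels. The let-7 seed GAGGUAG, with 10 members, stood at 224060, 132910 and 205090 CPM in untreated and 265860, 256550 and 275130 CPM at 24 h. All 24 h sums were above the untreated ones, and they agreed closely among themselves (log2 0.43, SE 0.35, edgeR adjusted p = 0.659). Higher too were ACCCUGU of miR-10a-5p and miR-10b-5p, at 1255 ± 411 and 3099 ± 1787 CPM (SD, n = 3), and UGGGAGA of miR-30c-1-3p, miR-30c-2-3p and miR-6958-5p, at 51.7 ± 19.6 and 96.4 ± 35.1 CPM. Lower were UGCCUAC of the miR-24 passenger strands, at 82.8 ± 28.2 and 27.5 ± 14.5 CPM, and AUGCACC of miR-500-3p and miR-501-3p, at 468 ± 353 and 199 ± 30.3 CPM (edgeR adjusted p = 0.312 to 0.686 for these 4).

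The RNA classes showed how the counted reads were spread beyond mature miRNA. For each of 14 classes the share was set against the spread by a two-sided exact permutation test, and 2 classes (14.3%) had groups that did not overlap. Reads in exons of longer genes took 7.79%, 7.46% and 7.88% in untreated and 10.3%, 10.1% and 11.1% at 24 h. Every 24 h library exceeded the untreated ones by 2 percentage points or more, and the spread within groups was small (difference of means 2.80 points, exact permutation p = 0.1, adjusted 0.56 over the classes). Small nucleolar RNA, which guides chemical modification of ribosomal RNA in the nucleolus, took 0.305%, 0.474% and 0.299% in untreated and 0.735%, 0.596% and 0.596% at 24 h. It was 1.79 times as high on average (exact permutation p = 0.1, adjusted 0.56).

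**Figure D5:**
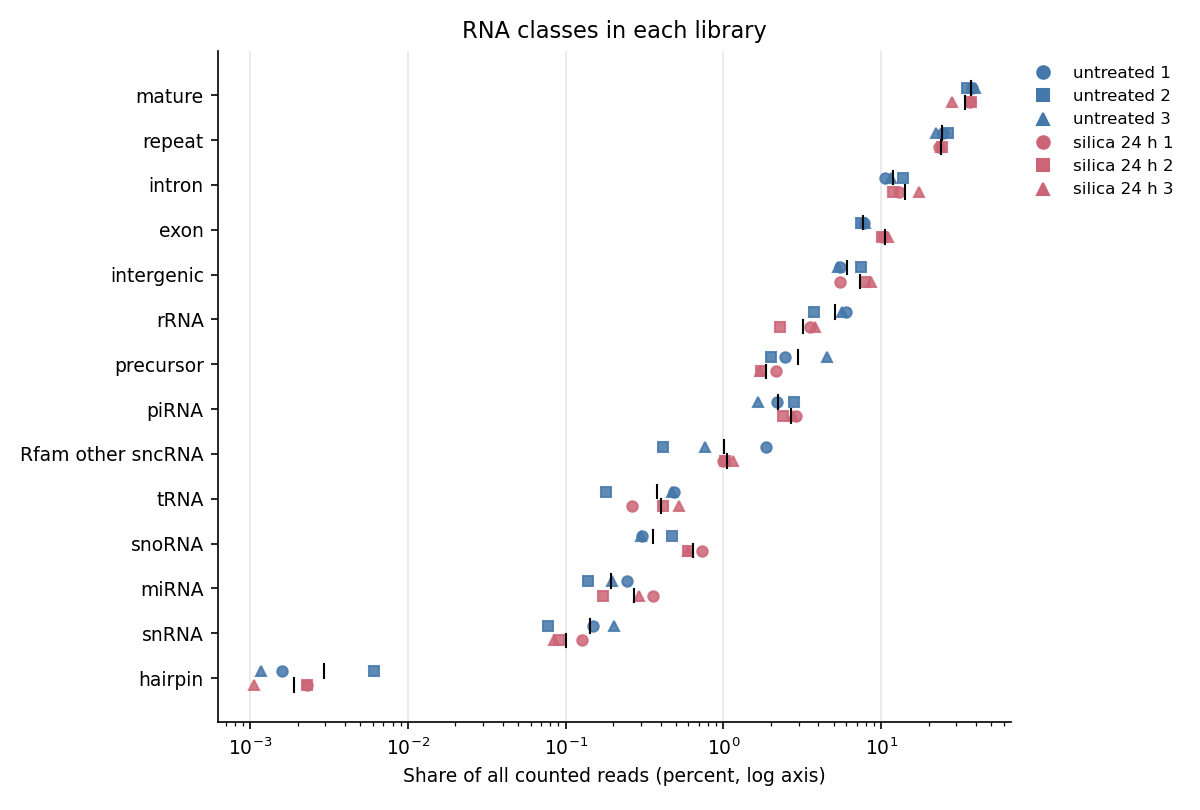
Share of all counted reads in each of the 14 RNA classes of the deposited tables, in percent on a log axis, with 1 point a library and black bars for group means. The exon and snoRNA points of the 24 h libraries lie to the right of all untreated points, and the other classes overlap.

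The other 12 classes overlapped between groups. Mature miRNA took 37.8%, 35.1% and 39.3% in untreated and 36.8%, 37.0% and 28.0% at 24 h (exact permutation p = 0.4), the lowest in 24 h library 3. Ribosomal RNA took 5.98%, 3.73% and 5.62% and 3.55%, 2.28% and 3.80%, and the miRNA precursor class 2.45%, 2.01% and 4.52% and 2.15%, 1.73% and 1.72% (exact permutation p = 0.2 for each). Repeats took 24.4% ± 2.09 and 23.9% ± 0.49, introns 12.0% ± 1.61 and 14.1% ± 2.97, intergenic reads 6.12% ± 1.17 and 7.33% ± 1.64 and piRNA-class reads 2.21% ± 0.57 and 2.69% ± 0.26 (SD, n = 3, exact permutation p = 0.3 to 0.7). The remaining 5 classes, tRNA, snRNA, other Rfam RNA, predicted miRNA and hairpin reads, each took under 2% in every library (exact permutation p = 0.3 to 1.0).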

How the data were processed

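Small RNA of exosomes from RAW264.7 cells was sequenced in 9 libraries, and the 3 untreated and 3 silica 24 h libraries are compared here. Tools named in the submitters' processing notes are Bowtie, HTSeq and Trim Galore, without versions, and the build is mm10. Each deposited table lists, per the file headers, the whole-number count of reads for each small RNA, its RNA class and a second value that the authors call TPM. That deposited value equals RPM of all counted reads (within 0.005) and was used only for rows outside the mature class, recomputed from the counts. A miRNA absent from a table was taken as 0 counts. Depth per library and the floor it sets stand in the report. 

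Mature counts were tested with edgeR 4.0.16 (R 4.3.3) by its quasi-likelihood test, with TMM scaling (factors 0.829 to 1.16) and filterByExpr at a minimum count of 10. The filter kept 453 of 1101 miRNAs and at least 99.96% of mature counts. All 9 libraries entered 1 fit with 6 residual degrees of freedom, and adjusted p-values are Benjamini-Hochberg called at 0.05. The common biological coefficient of variation was 0.756, and log2 fold changes had a median SE of 0.825. Arm balance was tested with limma 3.58.1, in hairpins with at least 50 counts in 3 libraries and 10 on each arm. Seeds came from RefSeq (GRCm38.p6), which held 937 of the 1101 sequences. Shares were compared by exact permutation. DESeq2 1.42.0 and limma-voom were among the alternatives, and the code was tested on simulated data.

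Members and lists were chosen with earlier results of these data known. Named miRNAs are the 10 lowest p in each direction, those without overlap at 1000 CPM or more, the 10 most abundant, 2 of the most abundant of each list, and the 8 lowest p of arms and seeds. Same-numbered libraries deviated together from their group means (r = 0.136, 0.439 and 0.149 for numbers 1, 2 and 3). They are treated as possibly paired, though the labels state no pairing. Untreated library 1 and 24 h library 3 reached 0.160, so only number 2 stood above all differently numbered pairs. The main fits left any pairing out. A fit with the replicate number as a block is given where it changed a call.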

Additional observations from a re-analysis of the deposited data

How the results depend on the processing

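The number of miRNAs that edgeR called, 0, became 1 with upper-quartile factors, 1 over the 6 libraries alone, 7 without the filter (1 higher, 6 lower), 3 with the replicate block and 4 with DESeq2, and 0 to 1 when single libraries were left out. The seed families called became 1 with upper-quartile factors, 1 over the 6 libraries, 7 without the filter, 9 with the replicate block and 0 to 1 with a library left out. Arm balance gave 1 hairpin over the 6 libraries, 0 with the replicate block and 0 to 1 with a library left out. The block changed no call beyond those counted here. Upper-quartile factors moved the median log2 fold change by 0.12, to 0.05. With a library left out, miRNAs without overlap numbered 60 to 86 higher and 36 to 76 lower, since fewer libraries overlap less.

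Some small differences changed sign. With upper-quartile factors the log2 differences of miR-128-3p, miR-30a-3p, miR-30d-5p and miR-320-3p became 0.037, 0.000867, 0.075 and 0.071. The replicate block gave 0.099 for miR-30a-3p and 0.034 for miR-30d-5p, and limma-voom 0.032 and 0.033. miR-378a-3p became -0.0827 by total count and -0.0662 without the filter. As shares of reads other than mature miRNA, the differences of other Rfam RNA and tRNA became -0.0320 and -0.00945 percentage points.

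Leaving out single libraries gave log2 ranges that crossed 0 for miR-126a-3p (-0.27 to 0.40), miR-128-3p (-0.27 to 0.20), miR-15b-5p (-1.47 to 0.14), miR-183-5p (-0.069 to 0.42), miR-199b-3p (-0.26 to 0.87), miR-29a-3p (-0.87 to 0.12), miR-30a-3p (-0.23 to 0.18), miR-30d-5p (-0.13 to 0.16), miR-320-3p (-0.22 to 0.045), miR-34a-5p (-0.050 to 0.44), miR-378a-3p (-0.40 to 0.56) and miR-99a-5p (-0.22 to 0.27). Untreated library 2 alone did this for miR-15b-5p, miR-183-5p, miR-29a-3p, miR-320-3p and miR-34a-5p. List medians crossed 0 for the let-7 guides (-0.33 to 0.24), their passenger strands (-0.77 to 0.19, above 0 without untreated library 2), the miR-181 list (-0.11 to 0.19) and the myeloid list (-0.63 to 0.13), and upper-quartile factors took that of the inflammation list to 0.03. The let-7 guide median was also -0.04 without the filter and -0.03 with limma-voom. Class differences crossed 0 in percentage points for other Rfam RNA (-0.26 to 0.47), hairpin (-0.0019 to 0.00050), repeat (-1.64 to 0.45) and tRNA (-0.077 to 0.090), as did the miRNAs detected (-118.5 to 24) and the percent of counts in the 10 most abundant (-0.69 to 2.67). The cause was not tested. With 3 libraries a group and a median SE of 0.825, no log2 difference passed the main edgeR test, whatever its size. Differences well above 1, such as 2.82 for let-7d-3p and -2.26 for miR-24-3p, were not told from the spread there. For a miRNA with 0 counts in a group, 3 counts were taken as the upper bound.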

Other observations

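Of 261 snoRNA rows, 31 had a mean count of at least 100, and of these 6 (19.4%) were higher at 24 h without overlap and 0 (0%) lower. The rows with the largest mean differences, U3 and SNORD10, both overlapped between groups. U3 stood at 862, 185 and 1089 RPM of all counted reads in untreated and 980, 689 and 2195 RPM at 24 h, and SNORD10 at 719, 2063 and 470 RPM and 1982, 1882 and 1033 RPM. The 6 without overlap had smaller mean differences. SNORD99 stood at 194, 237 and 159 RPM in untreated and 625, 878 and 423 RPM at 24 h, and SNORD57 at 233, 305 and 212 RPM and 561, 554 and 700.3 RPM. The SNORD55/SNORD39 family stood at 56.2, 173 and 51.4 RPM and 642, 314 and 215 RPM, and SNORD50 at 59.4, 97.0 and 72.2 RPM and 209, 187 and 146 RPM. Every 24 h library was above every untreated one in these rows. SNORD41 and SNORD24 had the same order with a wider spread, and 24 h library 1 was the highest of both. Among 8 ribosomal rows of that depth, 5.8S ribosomal RNA was the 1 (12.5%) without overlap, at 42937, 25990 and 33579 RPM in untreated and 24375, 13826 and 12252 RPM at 24 h. Rows named for bacterial small subunit ribosomal RNA stood at 2530, 146 and 1732 RPM in untreated and 1060, 687 and 7649 RPM at 24 h, lowest in untreated library 2 and highest in 24 h library 3, the libraries that correlated least with each other. These counts are descriptions over rows of the same reads, with no test.

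Base composition differed between the miRNAs that lay higher and those that lay lower. The median GC content was 52.4% over the 41 sequenced miRNAs higher without overlap, 43.5% over the 27 lower and 50% over all 402 tested with a sequence. Across the 402, GC content and log2 fold change had Pearson r 0.214 and Spearman rho 0.255, given without a p because miRNAs share the libraries and their depth. The letters CCCU, on the miRNA's own strand, occurred in 10 of the 41 (24.4%), in 0 of the 27 and in 35 of the 402 (8.71%). GGAG, another short motif described in vesicle miRNAs, occurred in 5 of the 41 (12.2%), 1 of the 27 (3.70%) and 55 of the 402 (13.7%). Both motifs were searched with the results known, and CCCU is itself rich in C, so its share is not separate from the GC difference.

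The 10 miRNAs with CCCU are shown with those letters in capitals, to show that the position along the miRNA varied.
miR-10a-5p: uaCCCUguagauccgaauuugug
miR-125a-5p: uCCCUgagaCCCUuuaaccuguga
miR-130b-5p: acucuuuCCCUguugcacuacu
miR-139-3p: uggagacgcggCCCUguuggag
miR-423-3p: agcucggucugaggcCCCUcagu
miR-1934-5p: ucuggucCCCUgcuucguccucu
miR-1943-3p: caggugccagcuccuCCCUuc
miR-409-3p: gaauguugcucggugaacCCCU
miR-484: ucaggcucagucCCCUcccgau
miR-615-3p: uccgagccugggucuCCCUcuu
The best counted of them, miR-423-3p, stood at 4369 ± 1073 CPM in untreated and 7243 ± 1712 CPM at 24 h, and miR-484 at 427 ± 223 and 916 ± 170 CPM (SD, n = 3). None of the 10 passed the test (edgeR adjusted p = 0.437 to 0.654). A match is a description of letters, and binding of any sorting protein was not measured.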
